A study of Mus musculus with 10 samples.

Results

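The phagocyte NADPH oxidase was followed through 6 genes in RNA sequencing of mouse splenic macrophages: Cybb, Cyba, Ncf1, Ncf4, Rac2 and Cybc1. They were chosen by symbol, through the Ensembl identifiers of the count table, and are 6 of its 55414 genes. Magnetic beads with an F4/80 antibody, which binds a surface marker of tissue macrophages in mice, had been used to isolate the cells from spleens. Of the 10 libraries, 5 were labelled Fpr2KO and 5 came from wild-type C57BL/6N mice (WT). The series describes the knockout mice as Fpr2-/-, lacking the gene of formyl peptide receptor 2. The labels give neither the strain background of the knockout line, nor the age or sex of the mice, nor whether replicates were separate animals. The p-values therefore cover only the spread among these libraries, part of which may be technical.

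The oxidase moves electrons from cytosolic NADPH across a membrane to oxygen, which makes superoxide at the cell surface or inside a phagosome. Its membrane core is a flavocytochrome of 2 chains, the catalytic chain encoded by Cybb and its partner encoded by Cyba, and Cybc1 encodes a chaperone that the flavocytochrome needs to accumulate. In resting cells the core is silent: on stimulation cytosolic subunits, among them those encoded by Ncf1 and Ncf4, join it, together with a Rac GTPase in its GTP-bound form. Formyl peptide receptors, which signal through Gi proteins, are a classical trigger of this assembly in neutrophils and macrophages. The comparison of Fpr2KO with WT asked how transcripts of splenic macrophages differ without the receptor. It says nothing of oxidase activity, which depends on assembly of the proteins.

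Library totals ran from 15865820 to 19060188 gene counts, and 14669 genes passed the filter on low counts. Fpr2 had 0 reads in each Fpr2KO library, against 1983 reads over the 5 WT libraries. Macrophage markers were abundant. Of 14 red pulp macrophage markers all were tested, among them Adgre1, which encodes F4/80, and their summed level was 9301 to 11767 CPM (counts relative to the library total, scaled by edgeR's TMM factors) in Fpr2KO and 9204 to 12063 CPM in WT. Transcripts of other cells were present too. The 17 neutrophil markers summed to 562.8 to 1019 CPM in Fpr2KO and 969.8 to 1611 CPM in WT, and the 10 classical monocyte markers to 2522 to 3494 CPM in Fpr2KO and 3414 to 4486 CPM in WT. For each of these 2 lists, 4 of 5 Fpr2KO libraries lay below every WT library. No neutrophil or monocyte marker was at 0 in all libraries, and the granulocyte marker Ly6g, one of the lowest, averaged under 1 CPM in both groups. Neutrophils and monocytes use the same oxidase genes, so fewer of these cells and less RNA per cell cannot be told apart in such bulk samples. B cell markers summed to 3178 to 4236 CPM in Fpr2KO and 2457 to 3717 CPM in WT. Dendritic cell markers summed to 836.9 to 1025 CPM in Fpr2KO and 811.5 to 1148 CPM in WT, and eosinophil markers were read too. What these cells add to the counts of the oxidase genes was not tested.

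None of the 6 genes passed the test between Fpr2KO and WT after adjustment over all genes, and for Cybb alone the 95% interval of the difference left out 0. All were tested, and 0 of 6 had an edgeR FDR (false discovery rate, adjusted over all genes) under 0.05, against 0.0682% of all genes tested in either direction and 0.0614% lower in Fpr2KO. With DESeq2 it was again 0 of 6, against 1.26% of genes in either direction and 0.676% lower in Fpr2KO. At an unadjusted p under 0.05 there was 1 of 6, Cybb, which was lower. Of all genes tested 9.80% lay under that p, 4.92% lower and 4.88% higher in Fpr2KO. In no member were the CPM ranges of the groups apart, as they were in 1.39% of genes tested (0.566% lower in Fpr2KO). Estimates were lower in Fpr2KO for 3 members (Cybb, Ncf1 and Ncf4) and higher for 3 (Cyba, Rac2 and Cybc1), though the signs of all but Cybb and Ncf1 turned under some alternative. There were 5 lower and 1 higher with a covariate for base composition or without Fpr2KO replicate 1, 4 lower and 2 higher with RLE scaling, and 2 lower and 4 higher without Fpr2KO replicate 2. Their median log2 fold change was -0.01, against 0.01 for all genes tested.

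The stretches of DNA upstream of the flavocytochrome genes and of Ncf1 are shown so that their letters can be compared. They were not tested for a link to the levels over the libraries. Each is the 250 bases before the start of the gene in RefSeq (GRCm38.p6), 5′ to 3′ on the strand of the gene, which is the minus strand for all 3. The RefSeq start of Cybb lies inside the span that GENCODE M21 gives the gene, so its window is upstream of the RefSeq start but not of every annotated transcript. Capitals mark the motifs CCAAT and GGGCGG, searched on both strands.
Cybb, chrX:9469325-9469574: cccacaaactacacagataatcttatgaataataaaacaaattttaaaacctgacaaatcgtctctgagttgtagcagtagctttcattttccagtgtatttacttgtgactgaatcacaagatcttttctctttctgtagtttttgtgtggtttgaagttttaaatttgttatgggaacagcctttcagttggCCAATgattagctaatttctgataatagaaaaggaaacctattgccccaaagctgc
Cyba, chr8:122432941-122433190: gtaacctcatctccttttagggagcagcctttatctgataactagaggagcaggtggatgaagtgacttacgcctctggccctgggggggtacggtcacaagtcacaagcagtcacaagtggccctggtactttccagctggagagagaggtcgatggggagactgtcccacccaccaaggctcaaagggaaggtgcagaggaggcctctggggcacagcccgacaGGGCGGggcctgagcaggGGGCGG
Ncf1, chr5:134229626-134229875: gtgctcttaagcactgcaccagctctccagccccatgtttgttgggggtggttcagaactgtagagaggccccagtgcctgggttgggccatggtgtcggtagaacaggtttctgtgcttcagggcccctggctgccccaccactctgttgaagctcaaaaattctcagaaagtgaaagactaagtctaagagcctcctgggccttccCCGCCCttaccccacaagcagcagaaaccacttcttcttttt

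The Cybb window was 34% G or C, lower than in all but 3.87% of the 32851 windows of the RefSeq table, and held CCAAT with its first base 56 bases before the start. The Cyba window was 60% G or C and held GGGCGG at 2 places, 24 and 6 bases before the start. The Ncf1 window was 54.4% G or C and held the reverse complement of GGGCGG with its first base 42 bases before the start. CCAAT occurs in 33.85% and GGGCGG in 32.7% of all windows, so neither is rare. 2 other motifs, TATAAA (12.4% of windows) and GAGGAAGT (2.44%), which contains the GGAA core of ETS factors, were in none of these 3 windows. No matches overlapped. Such matches describe letters only. The table held windows for 4 of the 6 genes, Cybc1 among them with 2 starts.

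Cybb (ENSMUSG00000015340) encodes the catalytic chain, which binds NADPH, FAD and the hemes. The gene lies on the minus strand of chromosome X, from 9435252 to 9487771 in the GENCODE M21 annotation of GRCm38. Fpr2KO replicates 1 to 5 had 604.4, 791.1, 683.3, 618.1 and 693.0 CPM. WT replicates 1 to 5 had 837.0, 838.4, 945.7, 693.7 and 827.9 CPM. Of the Fpr2KO libraries 4 lay below the lowest WT library, replicate 4, while Fpr2KO replicate 2 lay within the WT range. Fpr2KO replicate 5 was almost level with WT replicate 4. Cybb averaged 678.0 ± 74.2 CPM in Fpr2KO and 828.6 ± 89.6 CPM in WT (SD, n = 5 each). The log2 fold change was -0.29 (SE 0.10, 95% interval -0.50 to -0.08), which is 0.818 of the WT level, and did not pass (unadjusted p = 0.0109, FDR = 0.369 by edgeR). By p-value Cybb ranked 432 of 14669 genes.

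When the mean log2 CPM of the neutrophil markers was a covariate, the Cybb log2 fold change was -0.19 (SE 0.21), and with the classical monocyte markers it was -0.22 (SE 0.18), with edgeR FDR values of 0.999 and 0.998. On this scale each score was lower in every Fpr2KO library than in every WT library. Neutrophil scores, relative to the WT mean, were -0.88 to -0.24 in Fpr2KO and -0.16 to 0.14 in WT. Monocyte scores were -0.84 to -0.29 in Fpr2KO and -0.28 to 0.44 in WT. As the scores separate the groups, these fits can hardly tell a score effect from the group difference. The shifts in the Cybb estimate are also smaller than these SEs. Within Fpr2KO the libraries were mixed. Replicate 1 had the highest neutrophil score (-0.24 relative to the WT mean) and the lowest Cybb, and replicate 2 had a monocyte score of -0.69 and the highest Cybb. Going the other way, replicate 4 had the lowest neutrophil and monocyte scores (-0.88 and -0.84) with Cybb at 618.1 CPM. Replicate 5 had the highest monocyte score of the group (-0.29) with Cybb at 693.0 CPM. The WT libraries were mixed too. WT replicate 3 had the highest neutrophil score (0.14) and the highest Cybb (945.7 CPM). WT replicate 5 had the lowest neutrophil and the highest monocyte score (-0.16 and 0.44) with Cybb at 828 CPM. WT replicate 4 had the lowest Cybb of WT (693.7 CPM) with scores of -0.03 and -0.13. The part of other myeloid cells in the Cybb difference was not tested beyond this.

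Cyba (ENSMUSG00000006519; chromosome 8, 122424776 to 122432930, minus strand) encodes the smaller chain, which stabilises the catalytic chain and docks the Ncf1 protein. Fpr2KO replicates 1 to 5 had 336.4, 213.5, 286.1, 319.6 and 344.8 CPM. WT replicates 1 to 5 had 234.8, 251.6, 324.4, 331.8 and 250.02 CPM. The groups overlapped, with 2 Fpr2KO libraries (replicates 1 and 5) above the WT range and 1 (replicate 2) below it. Cyba averaged 300.1 ± 53.4 CPM in Fpr2KO and 278.5 ± 45.8 CPM in WT (SD, n = 5 each; log2 fold change 0.11, SE 0.14, FDR = 0.818 by edgeR). Its interval, from -0.19 to 0.40, allows anything from 0.880 to 1.32 of the WT level.

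Cybc1 (ENSMUSG00000039294; chromosome 11, 121222588 to 121229322, minus strand), the gene of the chaperone, had 123.3, 97.2, 108.8, 83.2 and 87.6 CPM in Fpr2KO replicates 1 to 5. In WT replicates 1 to 5 it had 90.4, 87.7, 105.3, 95.5 and 89.6 CPM. Fpr2KO libraries lay on both sides of the WT range, 2 above and 2 below it. Cybc1 averaged 100.02 ± 16.3 CPM in Fpr2KO and 93.7 ± 7.09 CPM in WT (SD, n = 5 each; log2 fold change 0.09, SE 0.10, FDR = 0.789 by edgeR). The positive sign rested on 1 library: without Fpr2KO replicate 1 the value was -0.0029. With the neutrophil score as a covariate, a score that itself separates the groups, it was 0.51 (SE 0.16, FDR = 0.999 by edgeR).

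**Figure D1:**
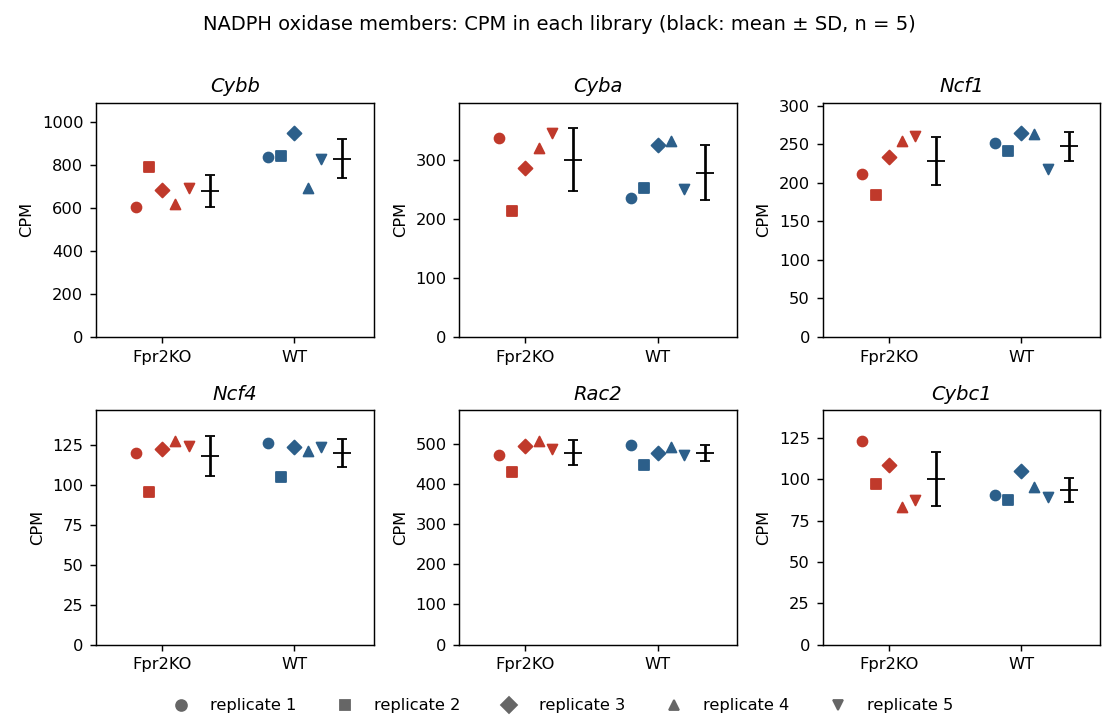
Vertical axes give CPM, from 0, for each of the 6 genes; points are libraries, with one marker shape per replicate number, Fpr2KO in red and WT in blue, and black bars are the mean ± SD (n = 5 each). Cybb is lower in 4 of 5 Fpr2KO libraries than in every WT library, though replicate 5 (693.0 CPM) is almost level with WT replicate 4 (693.7 CPM). The other genes have fewer Fpr2KO libraries below every WT library. Fpr2KO replicate 2 (square) is the lowest of its group for Cyba, Ncf1, Ncf4 and Rac2 but the highest for Cybb.

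Ncf1 (ENSMUSG00000015950; chromosome 5, 134220053 to 134229625, minus strand) encodes the organiser subunit, whose phosphorylation starts assembly. Fpr2KO replicates 1 to 5 had 211.0, 184.9, 234.3, 253.8 and 260.3 CPM. WT replicates 1 to 5 had 251.5, 242.0, 264.3, 263.0 and 218.0 CPM. Only Fpr2KO replicates 1 and 2 lay below the WT range. Ncf1 averaged 228.8 ± 31.2 CPM in Fpr2KO and 247.7 ± 18.96 CPM in WT (SD, n = 5 each; log2 fold change -0.11, SE 0.10, FDR = 0.721 by edgeR). Exons of Ncf1 share 408 bases with Gtf2ird2 on the opposite strand, and 9.84% of its 31-base sequences occur in another gene. Without a stated strand setting, reads of these 2 genes cannot be told apart there.

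Ncf4 (ENSMUSG00000071715; chromosome 15, 78244801 to 78262580, plus strand) encodes the subunit that binds phosphatidylinositol 3-phosphate on phagosomes. It had 119.9, 95.6, 121.9, 127.3 and 124.3 CPM in Fpr2KO replicates 1 to 5. In WT replicates 1 to 5 it had 126.0, 104.7, 123.7, 120.8 and 123.4 CPM. Apart from replicate 2, which was low in both groups, the libraries lay between 119.9 and 127.3 CPM. Ncf4 averaged 117.8 ± 12.7 CPM in Fpr2KO and 119.7 ± 8.596 CPM in WT (SD, n = 5 each; log2 fold change -0.02, SE 0.09, 95% interval -0.21 to 0.17, FDR = 0.954 by edgeR).

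Rac2 (ENSMUSG00000033220; chromosome 15, 78559167 to 78572783, minus strand) encodes the Rac GTPase restricted to blood cells. Fpr2KO replicates 1 to 5 had 470.9, 428.6, 494.9, 506.5 and 486.4 CPM. WT replicates 1 to 5 had 497.4, 447.5, 476.4, 491.1 and 471.3 CPM. The 2 groups were the closest of all members. Rac2 averaged 477.4 ± 30.2 CPM in Fpr2KO and 476.7 ± 19.5 CPM in WT (SD, n = 5 each; log2 fold change 0.00, SE 0.07, FDR = 0.994 by edgeR). The 95% interval, -0.16 to 0.16, spans 0.898 to 1.12 of the WT level.

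**Figure D2:**
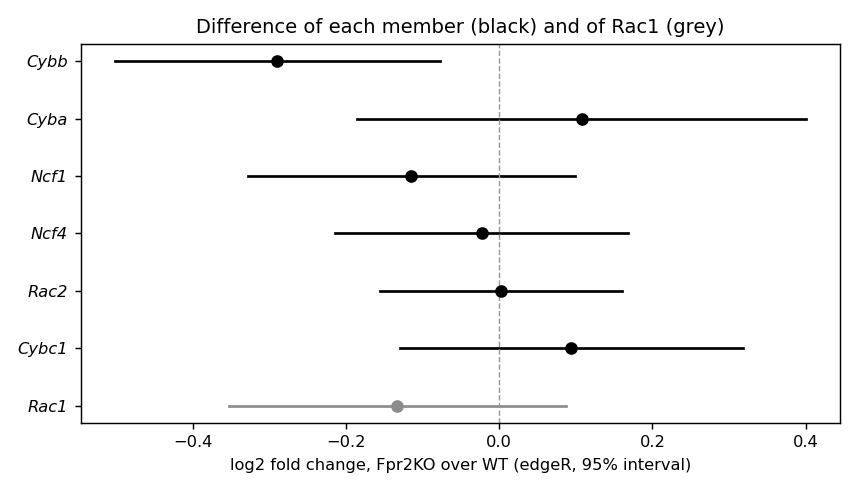
The horizontal axis is the log2 fold change of Fpr2KO over WT by edgeR, points are estimates and lines are 95% intervals, black for the 6 members and grey for Rac1. The interval of Cybb, -0.50 to -0.08, lies below 0, and the others include 0; no gene shown passed the FDR.

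Per length, Cyba was the highest member and Cybc1 the lowest in all 10 libraries. Levels were set per 1000 bases of exon (RPKM, that is CPM per 1000 bases). Cyba stood highest, at 288.8 ± 51.4 RPKM in Fpr2KO and 268.1 ± 44.1 RPKM in WT (SD, n = 5 each). Rac2 followed with 153.9 ± 9.74 RPKM in Fpr2KO and 153.6 ± 6.27 RPKM in WT, and Cybb with 116.7 ± 12.8 RPKM in Fpr2KO and 142.7 ± 15.4 RPKM in WT. Ncf1 had 62.5 ± 8.51 RPKM in Fpr2KO and 67.6 ± 5.18 RPKM in WT, and Ncf4 58.3 ± 6.29 RPKM in Fpr2KO and 59.3 ± 4.26 RPKM in WT. Cybc1 was the lowest, at 23.7 ± 3.87 RPKM in Fpr2KO and 22.2 ± 1.68 RPKM in WT. The catalytic chain was thus below its partner, and the organiser subunit close to Ncf4.

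Most steps of that order held in all 10 libraries, namely Cyba over Rac2, Cybb over Ncf1 and Ncf4 over Cybc1. Rac2 exceeded Cybb in 5 of 5 Fpr2KO libraries and in 3 of 5 WT libraries, where the ranges overlapped. Ncf1 exceeded Ncf4 in 4 of 5 libraries of each group, with overlapping ranges. The choice of length matters for close pairs: by the longest transcript, Cybb (142.7 RPKM in Fpr2KO, 174.4 RPKM in WT) stood above Rac2 in WT (156.9 RPKM) but not in Fpr2KO (157.1 RPKM). By that length Ncf4 also stood above Ncf1 in Fpr2KO (80.5 against 79.4 RPKM) but not in WT (81.8 against 86.0 RPKM). Cyba was above 98.8% of genes tested in Fpr2KO and 98.7% in WT, and Cybc1 above 85.6% in Fpr2KO and 84.5% in WT. The variation between libraries differed among members: the coefficient of variation was 17.8% in Fpr2KO and 16.4% in WT for Cyba, against 6.33% in Fpr2KO and 4.08% in WT for Rac2.

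**Figure D3:**
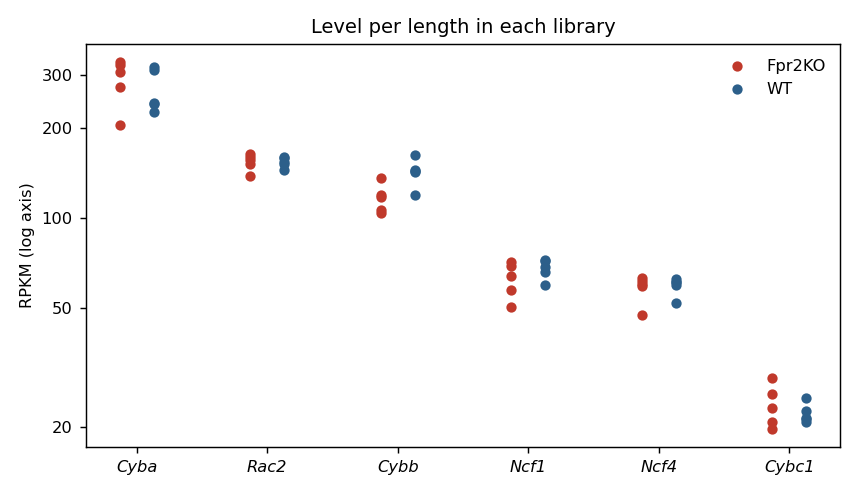
The vertical axis is RPKM on a log scale, with one point per library, Fpr2KO (red) left of WT (blue), and genes ordered by their WT mean. Cyba is highest near 288.8 RPKM in Fpr2KO and 268.1 RPKM in WT, Cybc1 is lowest, and Ncf1 and Ncf4 overlap.

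The ratio of the 2 flavocytochrome chains was taken as the log2 of Cybb RPKM over Cyba RPKM. It was -1.64, -0.59, -1.23, -1.53 and -1.48 in Fpr2KO replicates 1 to 5. In WT replicates 1 to 5 it was -0.65, -0.75, -0.94, -1.42 and -0.76. Fpr2KO replicates 1, 4 and 5 lay below every WT library, and Fpr2KO replicate 2 above every one. The ratio averaged -1.29 ± 0.42 in Fpr2KO and -0.90 ± 0.31 in WT (SD, n = 5 each), a difference of -0.39 on the log2 scale that did not pass (two-sided exact permutation p = 0.143, adjusted p = 0.341 over 3 ratios). Among the fits with 1 library left out, only that without Fpr2KO replicate 2 passed, with a difference of -0.57 (exact permutation, adjusted p = 0.0357). With any other library left out, the adjusted p by exact permutation lay between 0.167 and 0.619. With both replicate 2 libraries left out, chosen after seeing the data, the difference was -0.53 (exact permutation, adjusted p = 0.0857). A ratio shows unequal change and not which of the 2 genes moved.

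Ncf1 over Ncf4, the 2 cytosolic subunits with a PX lipid-binding domain, gave log2 ratios from -0.04 to 0.21 in Fpr2KO and from -0.04 to 0.35 in WT. The difference was -0.09 on the log2 scale (exact permutation p = 0.23, adjusted p = 0.341). Rac2 over Rac1 gave log2 ratios from 0.60 to 1.34 in Fpr2KO and from 0.59 to 1.03 in WT. Of 5 Fpr2KO libraries 4 were above every WT library, and the difference was 0.14 (exact permutation p = 0.341, adjusted p = 0.341). Without Fpr2KO replicate 2 it was 0.25 and passed (exact permutation, adjusted p = 0.0357), and without WT replicate 2 it was 0.06. With any library other than Fpr2KO replicate 2 left out, the adjusted p by exact permutation lay between 0.325 and 0.698. Rac1 encodes the Rac GTPase found in most tissues. It averaged 335.0 ± 46.3 CPM in Fpr2KO and 367.4 ± 37.3 CPM in WT (SD, n = 5 each; log2 fold change -0.13, SE 0.10, FDR = 0.69 by edgeR). Its count is uncertain, since 2309 of its 4496 exon bases overlap Daglb or a further gene on the opposite strand.

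The members did not all vary together from library to library. After subtracting group means over the 10 libraries, Pearson's r was 0.93 between Ncf4 and Rac2 and 0.73 between Cyba and Ncf1, but -0.53 between Cybb and Cyba and -0.54 between Cybb and Rac2. By ranks the opposed pairs were weaker: Spearman's rho was 0.82, 0.70, -0.35 and -0.39 in the same order. Values of 1 library share its depth and composition, so these are descriptions. Relative to the WT mean of each gene on the log2 CPM scale, Fpr2KO replicate 2 stood at -0.37 for Cyba, -0.42 for Ncf1, -0.32 for Ncf4 and -0.15 for Rac2, the lowest library of its group for each. For Cybb the same library, at -0.06, was the highest of its group. WT replicate 4 was the reverse case, the highest WT library for Cyba (0.27) and the lowest for Cybb (-0.25). Fpr2KO replicate 1 was the highest of all for Cybc1 (0.40) and the lowest of all for Cybb (-0.45).

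Base composition of the transcripts went with this pattern only in part. The longest Cybb transcript is 42.4% G or C, against 51.97% to 59.3% for the other members, with Cyba the highest. A score was taken for each library as the median log2 deviation of the 1463 tested genes richest in G and C (at least 57.5%) minus that of the 1463 poorest (at most 41.1%). It was 0.18, -0.51, 0.06, 0.29 and 0.29 in Fpr2KO replicates 1 to 5, and -0.26, -0.27, 0.18, 0.17 and -0.12 in WT replicates 1 to 5. Fpr2KO replicate 2 was thus the lowest of all, and it also held the highest mitochondrial share of its group (6.04% of counts; 3.22% to 3.99% in the other 4 Fpr2KO libraries, 4.83% to 6.09% in WT). Cybb did not follow the score throughout. WT replicates 3 and 4 had close scores (0.18 and 0.17) but the highest and the lowest Cybb of WT (0.20 and -0.25 relative to the WT mean). With the score as a covariate, chosen after seeing the data, the SE of Cyba was 0.06 in place of 0.14 and its log2 fold change -0.01. Under the same covariate Cybb was at -0.26 (SE 0.09 in place of 0.10, FDR = 0.339 by edgeR). Ncf1 was at -0.18 (SE 0.07, FDR = 0.415 by edgeR) and Rac2 at -0.02 (SE 0.06), and still 0 of 6 members passed. The labels name no batch that would match the score.

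**Figure D4:**
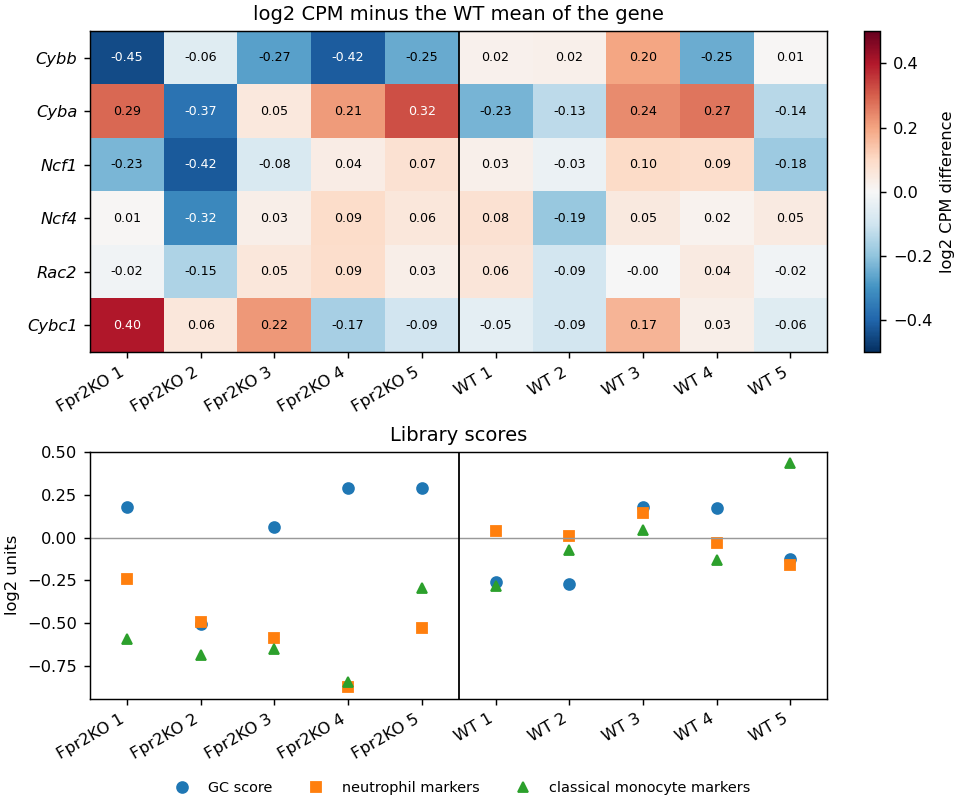
The upper panel gives log2 CPM minus the WT mean of the gene for the 6 members (rows) in 10 libraries (columns, Fpr2KO left of the line), blue for lower and red for higher. The lower panel gives 3 scores per library in log2 units: the GC score, and the mean log2 CPM of neutrophil and of classical monocyte markers relative to their WT means. Cybb is below its WT mean in all Fpr2KO libraries and in WT replicate 4. Cyba is above its WT mean in all Fpr2KO libraries but replicate 2 (-0.37), and in WT replicates 3 and 4. The GC score of Fpr2KO replicate 2 is -0.51.

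Genes with the most similar pattern over the 10 libraries were looked up for each member among 9348 protein-coding genes, after subtracting group means. Genes of 1 library share its depth and composition, and r is given as a description. For Cybb they were Msn, which encodes the membrane-cytoskeleton linker moesin (Pearson's r = 0.93), Ap1s2 (r = 0.92), an adaptor subunit of clathrin coats, and Slc36a1 (r = 0.92), a lysosomal amino acid transporter. For Cyba they were Sdhaf1 (r = 0.997), an assembly factor of succinate dehydrogenase, Atp6v0b (r = 0.98), a subunit of the vacuolar proton pump, and Lamtor4 (r = 0.98), a part of the lysosomal Ragulator complex. Ncf1 was nearest to Inafm1 (r = 0.98), G6pc3 (r = 0.96), a glucose-6-phosphatase of the endoplasmic reticulum, and Zfp787 (r = 0.96). Ncf4 was nearest to Trim11 (r = 0.99), Cars2 (r = 0.99) and Rapgef1 (r = 0.97). Rac2 was nearest to Il21r (r = 0.96), the interleukin-21 receptor chain, Wdr4 (r = 0.95) and Itpkb (r = 0.95). Cybc1 was nearest to Acsl5 (r = 0.95), Bpnt1 (r = 0.91) and Atp5o (r = 0.90). None of these 18 genes passed the FDR.

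Around the members, 7 lists hold 122 other genes of the oxidase pathway, of which 115 were tested. None passed the FDR by edgeR, in either direction. At an unadjusted p under 0.05, 16 had lower and 1 had higher estimates in Fpr2KO, so 13.9% of the pathway genes were lower at that level against 4.92% of all genes tested. Lower estimates were found for 86 of 115 pathway genes (74.8%), against 46.8% of all genes tested. The median log2 fold change was -0.07, against 0.01 for all genes. No set test was made on this difference. The lists were chosen with earlier results of these data known, so these shares are descriptions only. 4 of the pathway genes, S100a8, S100a9, Mpo and Cebpe, are neutrophil markers as well, and the neutrophil list itself had lower estimates for 15 of 16 genes tested. In the other marker lists, estimates were lower for 10 of 10 classical monocyte and 6 of 6 platelet markers tested, and higher for 14 of 14 erythroid and 9 of 9 B cell markers. Red pulp macrophage markers were split, with 7 higher and 7 lower. Dendritic cell markers had 5 higher and 3 lower, eosinophil markers 2 higher and 3 lower, and T cell markers 8 higher and 1 lower. The part of these cells in the lower pathway estimates was not tested.

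Genes listed for the other NOX and DUOX oxidases were nearly silent. Nox3, Duox1 and Duoxa1 had 0 reads in every library, which allows up to 0.0344 CPM over the Fpr2KO group and 0.0347 CPM over the WT group at 3 counts, for counting error only. Nox4 had 1 read in each group. Nox1 averaged 0.605 ± 0.111 CPM in Fpr2KO and 0.751 ± 0.269 CPM in WT, and its organiser Noxo1 2.34 ± 0.448 CPM in Fpr2KO and 2.25 ± 0.367 CPM in WT (SD, n = 5 each). Neither Nox1 (FDR = 0.769) nor Noxo1 (FDR = 0.939) passed by edgeR.

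Among 18 small GTPases and their regulators, 14 had lower estimates and 3 of them an unadjusted p under 0.05. These were Dock5, an exchange factor for Rac, at 116.0 ± 13.1 CPM in Fpr2KO and 139.0 ± 6.42 CPM in WT, Tiam1, another Rac exchange factor (log2 fold change -0.33, SE 0.11), and the GTPase gene Rap1b (-0.30, SE 0.12). Of 26 kinases and lipid kinases, 22 had lower estimates, and 0 of 26 passed the FDR. The smallest p-values fell on genes of phosphoinositide 3-kinase gamma, the isoform driven by Gi-coupled receptors: its regulatory subunits Pik3r6 (log2 fold change -0.50, SE 0.17) and Pik3r5 (-0.27, SE 0.11) and its catalytic subunit Pik3cg (-0.21, SE 0.10). Their FDR values by edgeR lay between 0.364 and 0.507, so none of the 3 is a call. Of 19 genes of Gi-coupled signalling, 15 had lower estimates and 0 an unadjusted p under 0.05, with Rgs18 (-0.23, SE 0.11), Itpr1 (-0.17, SE 0.09) and Rgs2 (-0.13, SE 0.09) nearest.

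Trafficking and turnover genes of the oxidase, 19 in all, had lower estimates in 13. The smallest p-values were those of the syntaxin gene Stx3 (log2 fold change -0.41, SE 0.14) and of the vesicle GTPases Rab27a (-0.22, SE 0.08) and Rab5a (-0.21, SE 0.08). Of 16 transcription factors known to act on phagocyte oxidase genes, 13 had lower estimates. Cebpb (-0.41, SE 0.15), the coactivator gene Crebbp (-0.27, SE 0.11) and Cebpa (-0.39, SE 0.15) had the smallest p-values, with FDR values from 0.397 to 0.443 by edgeR.

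Superoxide and peroxide disposal was split evenly, with 7 of 15 genes higher and 8 lower, and held the 2 of 115 pathway genes whose groups did not overlap, a share near the 1.39% of all genes tested. Gsr, glutathione reductase, averaged 156.8 ± 18.3 CPM in Fpr2KO and 228.8 ± 35.0 CPM in WT (SD, n = 5 each; log2 fold change -0.55, SE 0.11, FDR = 0.112 by edgeR). Prdx2, a peroxiredoxin abundant in red cells, averaged 125.5 ± 17.7 CPM in Fpr2KO and 90.9 ± 9.90 CPM in WT (log2 fold change 0.46, SE 0.10, FDR = 0.147 by edgeR). Both passed with DESeq2, which called 2 of 115 pathway genes against 1.26% of all genes, and with no filter on low counts. The third by p-value was Prdx6 (log2 fold change -0.24, SE 0.10). The summed level of 14 erythroid markers was 4714 to 11131 CPM in Fpr2KO and 1648 to 6654 CPM in WT, with 4 Fpr2KO libraries above every WT library. Its part in the Prdx2 difference, and that of the neutrophil markers in the Gsr difference, was not tested.

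**Figure D5:**
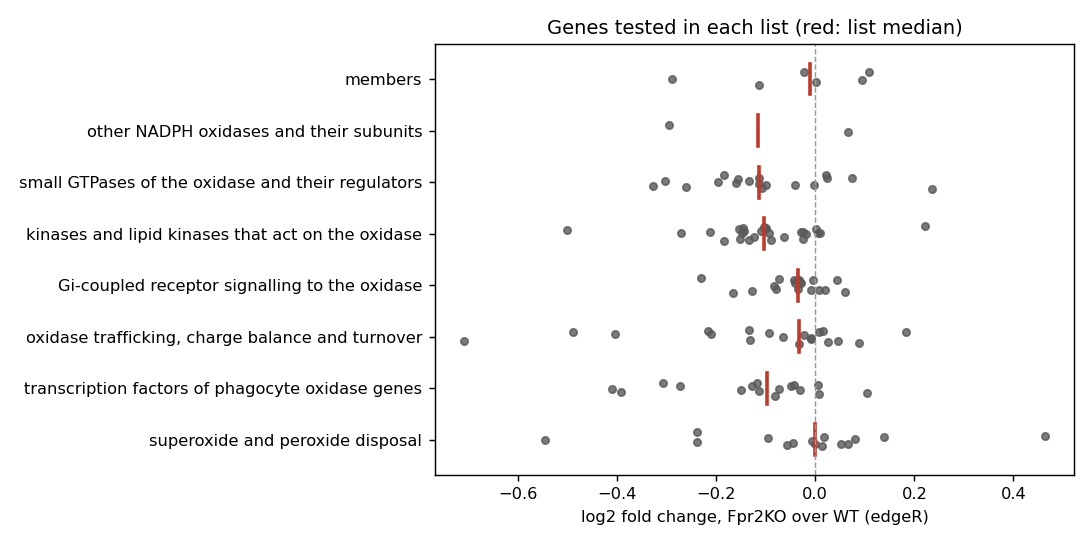
The horizontal axis is the log2 fold change of Fpr2KO over WT by edgeR, each point is a gene tested, and the red line is the median of its list. The members are centred near 0 (median -0.01), the list medians below them lie between -0.11 and 0.00, and Gsr (-0.55) and Prdx2 (0.46) are the extremes of the disposal list.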

How the data were processed

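The deposited table holds raw read counts per Ensembl gene for each library, not normalised by the authors. The submitters' processing notes name HTSeq 0.10.0, FastQC 0.10.1 and the builds mm10 and GRCm38. Per the labels, polyA RNA was sequenced. No source used here states the aligner, strand setting or annotation release. Symbols, coordinates and lengths came from GENCODE M21 (52081 of 55414 identifiers matched). The 10 libraries were kept as separate replicates, and all 20 pairs within groups differed by more than sampling noise. Such a check can find a library entered again, but not replicates taken from the same animal.

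Differences were tested in edgeR 4.0.16 under R 4.3.3 (filterByExpr, TMM, robust quasi-likelihood, no covariate), two-sided, with Benjamini-Hochberg adjustment over all genes tested. In simulated data the procedure recovered 50% of genes changed 1.5-fold and 92% of those changed 2-fold. The member estimates, 0.818 to 1.08 of the WT level, were smaller changes than these. Not passing therefore does not show that a member is unchanged. SE is the log2 fold change divided by the square root of F. RPKM divides CPM by the union of exons. Ratios used exact permutation over 252 assignments (smallest p 0.00794). Alternatives used limma 3.58.1, DESeq2 1.42.0, other filters, scalings and covariates, and left-out libraries.

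Members and lists were chosen with earlier results of these data known. Named were the members, Fpr2, Rac1, any pathway gene past the FDR or else the 3 smallest p-values of each list, and the 3 genes most like each member among those whose mean log2 CPM was 3 or more. One further gene is not reported here and was left out of the lists.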

Additional observations from a re-analysis of the deposited data

Results flagged for a closer look

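4 values lay far from the rest of their group, a gap to the nearest library of over 0.71 of the group's range, among 20 groups of 5 examined. Chance flags about 1 in 20 such groups. Ncf4 was at 95.6 CPM in Fpr2KO replicate 2, with the next library at 119.9 CPM, and at 104.7 CPM in WT replicate 2, with the next at 120.8 CPM. The Rac2 to Rac1 log2 ratio of WT replicate 2 was 0.59, against 0.93 to 1.03 in the other WT libraries. The summed level of the 6 members was 2240 CPM in WT replicate 3, against 1972 to 2037 CPM in the other WT libraries.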

How the results depend on the processing

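No member passed under any of the 21 alternatives, and Cybb kept its sign in all of them, from -0.36 (without Fpr2KO replicate 2) to -0.19 (neutrophil covariate). The neutrophil and monocyte scores separate the groups, which limits what fits with them show. Over all genes the main count of 10 was 62 with no filter, 185 with DESeq2, 1 with the neutrophil and 4 with the monocyte covariate, and 8 to 51 with a library left out (51 without WT replicate 5, 26 without Fpr2KO replicate 2 or WT replicate 4). Pathway calls were 2 with no filter and 2 with DESeq2, Gsr and Prdx2 each time. The replicate block gave 64 genes and 1 pathway gene, S100a8, and called no member (Cybb FDR = 0.239 by edgeR); equal numbers pair no libraries by the labels, their correlations ran from -0.239 to 0.291, and 2 of 5 Fpr2KO libraries correlated best with the WT library of their own number.

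Signs turned for small estimates. Rac2 was -0.025 with the GC score, -0.0078 with RLE, -0.0010 with no filter, -0.0055 with a strict filter, -0.0077 with DESeq2, -0.087 with the neutrophil and -0.033 with the monocyte covariate, and -0.020 to 0.029 with a library left out. Cyba was -0.0081 with the GC score. Ncf4 was 0.015 with the monocyte covariate and -0.068 to 0.034 with a library left out, and Cybc1 -0.0029 to 0.15. The log2 ratio differences ran from -0.57 to -0.30 for Cybb to Cyba, from -0.15 (without WT replicate 5; exact permutation, adjusted p = 0.0952) to -0.055 (without WT replicate 2) for Ncf1 to Ncf4, and from 0.056 to 0.25 for Rac2 to Rac1. With a library left out, Cyba ran from 0.044 to 0.20 and Ncf1 from -0.17 to -0.056. The causes were not tested. With 5 libraries a group, the 95% interval of Rac2, the narrowest, still spans 0.898 to 1.12 of the WT level.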
